A study of Mus musculus with 24 samples.

Results

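Streptozotocin diabetes was compared with the control state in gastrocnemius muscle of WT mice, the calf muscle that in mice is made mostly of fast fibres. The comparison rests on 8 of the 24 RNA-seq libraries of the series: the 4 diabetic and 4 control libraries whose columns carry these names in the authors' table of WT control and diabetic muscle. Streptozotocin is taken up by the insulin-producing beta cells of the pancreas and kills them, so that the animals lack insulin. The diabetic WT mice had been given streptozotocin once, intraperitoneally, at 150 mg/kg, and their muscle was taken 14 days later. WT stands for Notch2f/f animals on the C57BL/6 background without a Cre recombinase, so both groups carry floxed but intact Notch2 alleles. For values side by side, 4 diabetic and 4 control libraries of Notch2-mKO muscle (Mlc1fCre/+;Notch2f/f, in which Cre is made from the Mlc1f locus in muscle fibres) and 4 libraries of WT muscle after 7 days of hindlimb suspension were used. The labels do not give age, sex, an injection of the controls or the time of day, and they do not say that replicates are separate animals, so p-values measure the spread between these libraries, which may be technical. The title of the series concerns Notch2 deficiency and muscle atrophy, and the diabetic WT group is the disease reference for that question.

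Insulin normally makes muscle take up glucose through the transporter GLUT4 and keeps the FOXO transcription factors out of the nucleus through PI3-kinase and AKT. When insulin is missing, FOXO factors drive ubiquitin ligases and autophagy genes that break down muscle protein, glucocorticoids rise and act in the same direction, and circulating fatty acids and ketone bodies become the main fuels. Fatty acids are ligands of the PPAR nuclear receptors, which raise genes of fatty acid uptake and beta-oxidation and the kinase PDK4, which closes the pyruvate dehydrogenase gate between glycolysis and the citric acid cycle.

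The 8 libraries held 33112459 to 56369917 estimated counts each and 14226 to 14704 genes above 0, so that 3 counts, taken as the floor of detection, were at most 0.0906 CPM (counts scaled to a common library size). The main axis of variation, with 49.7% of the variance, separated the groups: the controls had scores of -41.7, -31.9, -53.0 and -20.0 (replicates 1 to 4, the order used throughout) and the diabetic libraries 16.2, 39.3, 61.3 and 29.9. The groups also differed in a property of the RNA sequence. The mean log2 level of 1023 AT-rich transcripts (under 42% GC) minus that of 2444 GC-rich ones (over 56%), each relative to the mean of all 24 libraries, was -0.90, -0.71, -1.02 and -0.19 in the controls and 0.21, 0.47, 0.59 and 0.37 in diabetes, with no overlap. Such a trend can come from the libraries or from the muscle, and in this comparison the 2 cannot be told apart. A second fit, called here the GC-adjusted fit, removed the smooth trend of every library with GC content and transcript length. Its value is given for a gene that passed where it ends the call, turns the direction or moves the fold change by more than 1.5 times on the log2 scale, for a gene that did not pass where it passes there, and for a list where a count moves by more than 1.5 times or to or from 0. Fast-fibre markers were abundant in every library: Myh4, the IIb myosin heavy chain, was at 84388 to 102832 CPM in the controls and 58308 to 87322 CPM in diabetes, and Ckm, muscle creatine kinase, at 42784 to 52870.2 CPM in the controls and 34964 to 40020.3 CPM in diabetes. Notch2 itself, low in muscle, was at 1.76 to 1.92 CPM in the controls and 1.74 to 3.18 CPM in diabetes (log2 fold change 0.31, adjusted p = 0.333).

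Of 13048 genes tested, 2327 (17.8%) rose and 2027 (15.5%) fell in diabetes (edgeR quasi-likelihood test, Benjamini-Hochberg adjusted p below 0.05), and 783 of the former and 372 of the latter changed by more than 2-fold. In 3926 genes (30.1%) the 4 diabetic libraries did not overlap the 4 controls. The GC-adjusted fit called 1869 genes higher and 1295 lower of 12629 with a known sequence, and 2168 of the 4354 called genes were called in both fits, 2145 of them in the same direction and 23 in the opposite one. Limma on the authors' own log2 values, which differs from edgeR in the values, the test and the genes tested (10827), called 2972 higher and 562 lower, so that 84.1% of its calls were higher against 53.4% in edgeR, with the median gene shifted by 0.20 where edgeR has -0.01. Leaving out one library at a time, 2741 of the called genes kept their call and direction in all 8 refits. Lists of genes are given below by their counts against these shares of all genes, so that a list with 17.8% of members higher and 15.5% lower stands where the average gene stands.

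**Figure D1:**
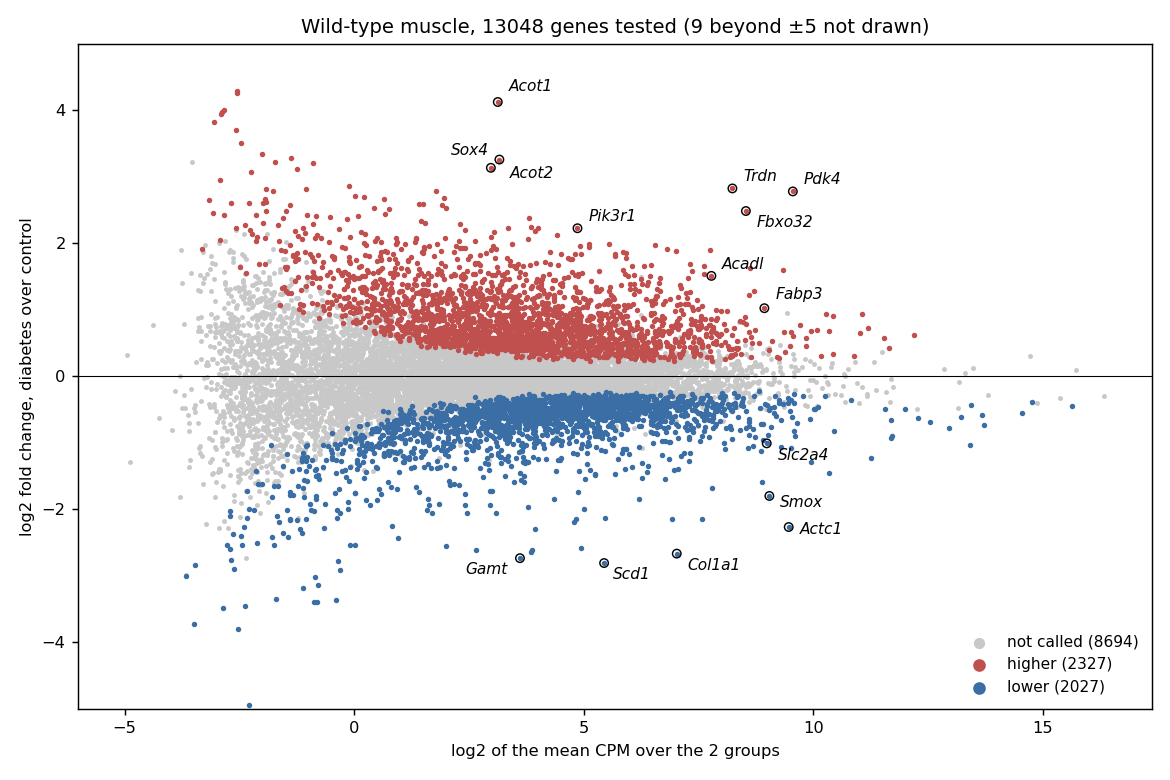
Log2 fold change (diabetes over control, WT muscle) of the 13048 genes tested against the log2 of their mean CPM over both groups; red, 2327 genes called higher; blue, 2027 called lower; grey, not called; 9 genes beyond ±5 are not drawn. The open circles mark genes described in the text, with Acot1, Acot2, Trdn, Sox4 and Pdk4 at the top and Scd1, Gamt and Col1a1 at the bottom.

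Among genes that passed without overlap and reached a mean of 2 CPM in diabetes (clone names passed over), the largest rise was that of Acot1, a cytosolic thioesterase that splits fatty acyl-CoA and is a classical PPAR-alpha target. Its level was 1.08, 0.570, 1.10 and 1.05 CPM in the controls and 11.5, 21.5, 19.97 and 12.98 CPM in diabetes (log2 fold change 4.13, SE 0.50, adjusted p = 5.89e-06). Every diabetic library was far above every control. Its mitochondrial relative Acot2 followed, at 1.17, 1.06, 2.82 and 1.71 CPM in the controls and 15.98, 20.5, 14.5 and 13.8 CPM in diabetes (log2 fold change 3.26, SE 0.34, adjusted p = 1.97e-06). No diabetic library came near a control for either gene.

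The genes Acot1 and Acot2 lie side by side on mouse chromosome 12, their starts 21641 bases apart on the same strand, and their coding sequences are 85.6% identical (1181 of 1380 aligned bases), so that estimated counts could be shared between them and their separate values are uncertain to that extent. Their promoters are shown because the pair rose together from sequences that are not alike: over the 250 bases before each start only 128 of 283 aligned columns (45.2%) are identical. The sequences are from RefSeq (GRCm38.p6), 5′ to 3′ on the coding strand, with the CCAAT motif (searched on both strands as CCAAT) in capitals.
Acot1 chr12:84009252-84009501: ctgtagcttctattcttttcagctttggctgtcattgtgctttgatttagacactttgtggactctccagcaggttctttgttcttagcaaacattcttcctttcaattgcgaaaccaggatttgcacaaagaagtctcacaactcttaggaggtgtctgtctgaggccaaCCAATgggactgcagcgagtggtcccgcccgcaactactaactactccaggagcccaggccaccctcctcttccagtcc
Acot2 chr12:83987611-83987860: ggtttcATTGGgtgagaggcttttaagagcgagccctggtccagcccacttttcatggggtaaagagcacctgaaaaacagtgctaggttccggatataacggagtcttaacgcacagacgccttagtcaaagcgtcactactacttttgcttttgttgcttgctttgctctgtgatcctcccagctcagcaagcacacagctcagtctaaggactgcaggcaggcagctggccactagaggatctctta
The CCAAT motif lay 79 to 75 bases before the start of Acot1 and, on the reverse strand, 244 to 240 bases before that of Acot2. Neither window held the PPAR direct repeat (AGGTCA followed after any 1 base by AGGTCA), which was in 11 of 27025 mouse promoters of this length (0.0407%) and in 0 of the 38 promoters of the fatty acid list. For so rare a motif almost any 38 promoters would give 0, and sequence beyond the 250 bases was not searched. A single AGGTCA was in 6 of those 38 (15.8%) against 15.8% of all promoters, and CCAAT in 18 of 38 (47.4%) against 37.5%.

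Pdk4, the kinase that inactivates pyruvate dehydrogenase, rose from 132, 73.8, 352 and 205 CPM to 1126, 1215, 1006 and 1899 CPM (log2 fold change 2.78, SE 0.50, adjusted p = 1.78e-04). The highest control, replicate 3, was below the lowest diabetic library, as the choice of genes without overlap requires of every gene in this paragraph. Fbxo32, which encodes the muscle ubiquitin ligase atrogin-1, was at 67.5, 116, 88.6 and 176 CPM in the controls and 287, 583, 1216 and 425 CPM in diabetes (log2 fold change 2.49, SE 0.57, adjusted p = 0.00174). Its diabetic libraries spread widely, with replicate 3 the highest, and none reached down to the controls. Trdn, triadin of the calcium release unit, was at 37.9, 55.9, 45.2 and 159 CPM in the controls and 375, 597, 656 and 487 CPM in diabetes (log2 fold change 2.83, SE 0.38, adjusted p = 1.37e-05), with 1.91, adjusted p = 2.24e-05 in the GC-adjusted fit, control replicate 4 standing above the other controls. Nr4a3, an immediate early nuclear receptor induced by exercise and adrenergic signals, was at 0.867, 0.971, 1.07 and 0.525 CPM in the controls and 9.38, 8.99, 3.12 and 2.62 CPM in diabetes (log2 fold change 2.79, SE 0.67, adjusted p = 0.00244), higher in diabetic replicates 1 and 2 than in 3 and 4.

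The other large rises were in genes of low level. Sox4, a transcription factor of development and TGF-beta responses, was at 1.12, 2.37, 0.727 and 2.16 CPM in the controls and 4.25, 23.02, 21.1 and 8.15 CPM in diabetes (log2 fold change 3.14, SE 0.55, adjusted p = 1.42e-04). Il6ra, the interleukin-6 receptor chain, rose by 2.69 on the log2 scale (adjusted p = 4.14e-05) from at most 1.16 CPM in the controls to 3.16 to 10.6 CPM. Npr3, the clearance receptor of natriuretic peptides, rose by 2.54 with diabetic replicate 3 far above the rest (3.63, 3.66, 14.9 and 5.18 CPM). Rock1, a kinase of the actin cytoskeleton, rose by 2.70 from under 1 CPM. Ifi205, an interferon-inducible gene, rose by 2.58. The nuclear proteins Ankrd12 (2.60), Hmgn5 (2.44), Dek (2.38) and Esf1 (2.33) completed the 15 largest rises, which were chosen among genes without overlap between the groups. Rock1 was at 1.75 in the GC-adjusted fit (adjusted p = 0.00393). Ifi205 was at 1.37 in the GC-adjusted fit (adjusted p = 0.0303).

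The 15 largest falls, like the rises, were chosen among genes without overlap between the groups. Among them, 4 were collagens (Col1a1, Col5a3, Col1a2, Col15a1) and 3 were tendon or cartilage matrix genes (Chad, Cilp2, Tnmd), described with the matrix. Scd1, the desaturase that makes monounsaturated fatty acids, fell from 96.5, 70.8, 34.7 and 102 CPM to 9.49, 5.86, 9.07 and 18.9 CPM (log2 fold change -2.81, SE 0.53, adjusted p = 3.05e-04). Control replicate 3 was the lowest control and lay above every diabetic library. Gamt, the second enzyme of creatine synthesis, fell from 19.4, 24.3, 22.4 and 18.7 CPM to 4.48, 2.44, 0.939 and 4.90 CPM (log2 fold change -2.73, SE 0.43, adjusted p = 4.90e-05), lowest in diabetic replicate 3. Cbr2, a carbonyl reductase, fell by 2.58, Cited4, a transcriptional coregulator, by 2.19, Cacna2d4, an auxiliary calcium channel subunit, by 2.43 and Pcdh12, an endothelial protocadherin, by 2.24 on the log2 scale. Actc1, the cardiac actin also made in immature muscle, was at 624, 479, 2528 and 1042 CPM in the controls and 292, 243, 50.99 and 385 CPM in diabetes (log2 fold change -2.27, adjusted p = 0.00835), high in control replicate 3. Actc1 lost its call without control replicate 3 (-1.56, adjusted p = 0.0665). Far2, a fatty acyl-CoA reductase, was at 3.32, 3.55, 3.07 and 5.69 CPM in the controls and 0, 0, 0.0280 and 0 CPM in diabetes, close to nothing in every diabetic library (adjusted p = 5.72e-05), and no fold is given against these levels. The unloaded WT libraries were also near 0 for Far2 (0 to 0.194 CPM), whereas the control libraries of Notch2-mKO muscle ran from 0.123 to 5.49 CPM.

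**Figure D2:**
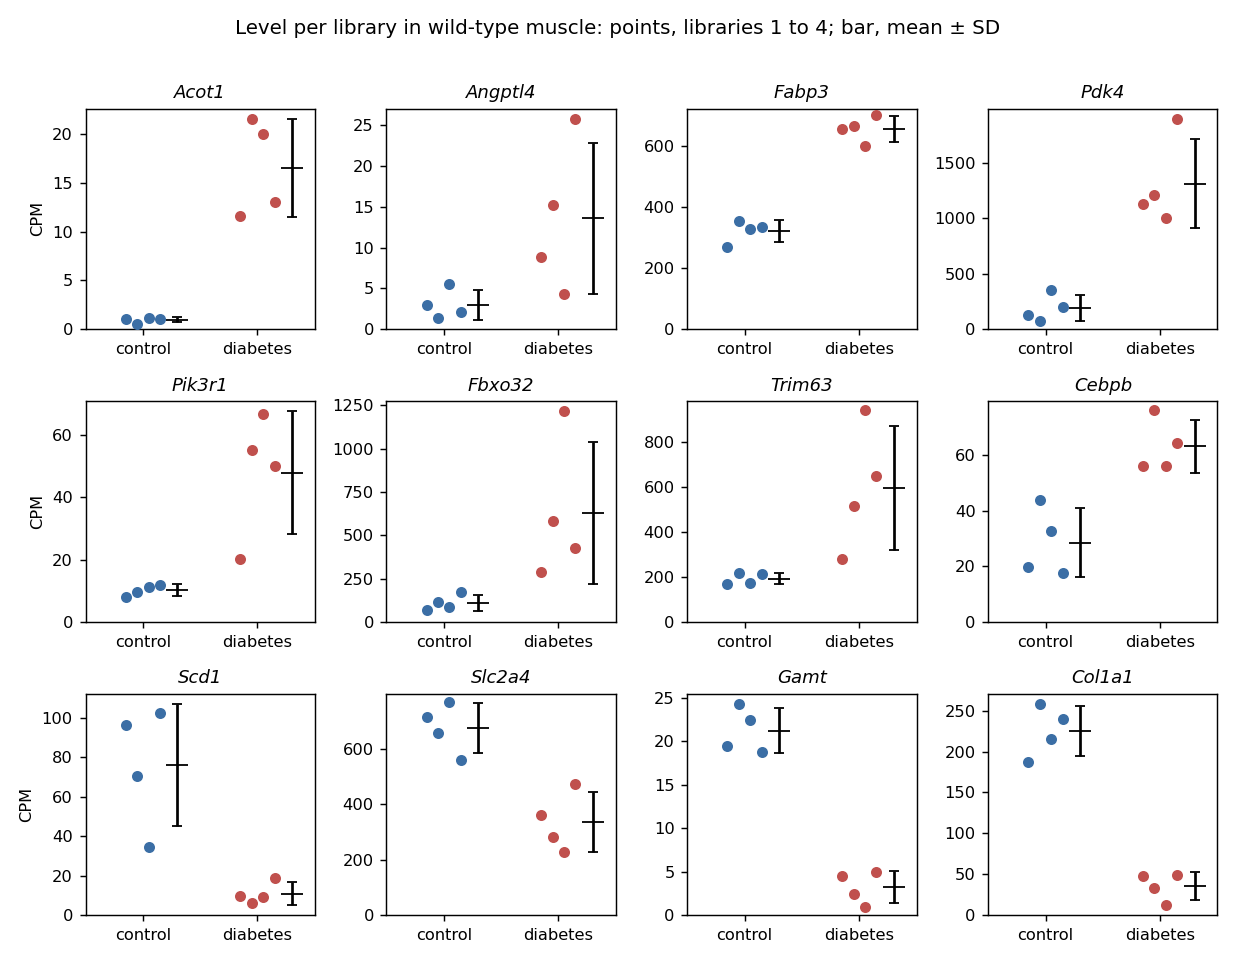
CPM of 12 genes in each of the 4 control (blue) and 4 diabetic (red) libraries of WT muscle, replicates 1 to 4 from left to right, with the mean ± SD as black bars; every vertical axis starts at 0. Groups overlap for Angptl4 alone of the 12, where diabetic replicate 3 (4.37 CPM) lies below control replicate 3 (5.60 CPM). The 12 were picked for display. Acot1, Pdk4, Fbxo32, Scd1, Gamt and Col1a1 come from genes chosen for not overlapping, as 30.1% of all genes tested do not.

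Genes of fatty acid use were mostly higher. Of 47 tested, 27 were higher and 4 lower, against 17.8% and 15.5% of all genes, with a median log2 fold change of 0.46 where the median of all genes was -0.01. The number lower, 4 over all libraries, was 2 without diabetic replicate 2. In the GC-adjusted fit 30 rose and 3 fell, with a median of 0.51. That fit called 14.8% of all genes higher and 10.3% lower. In the mean over the list, the diabetic libraries lay between 0.393 and 0.651 above the mean of the controls on the log2 scale, and the controls between -0.0613 and 0.0931.

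At the cell surface, Cd36, the main fatty acid translocase of muscle, was at 66.6, 78.4, 73.5 and 108 CPM in the controls and 178, 264, 236 and 229 CPM in diabetes (log2 fold change 1.48, SE 0.19, adjusted p = 7.13e-06). Cd36 was at 0.54 in the GC-adjusted fit (adjusted p = 0.0227). Slc27a1, the insulin-responsive transport protein FATP1, was at 57.02, 61.04, 57.9 and 60.1 CPM in the controls and 120.3, 164, 138 and 153 CPM in diabetes (log2 fold change 1.28, SE 0.14, adjusted p = 1.97e-06), and the control values spanned only a few CPM. Fabp3, which carries fatty acids through the cytosol and belongs to the abundant mRNAs of muscle, rose from 269, 355, 329 and 335 CPM to 657, 665, 599 and 701 CPM (log2 fold change 1.03, SE 0.14, adjusted p = 1.68e-05). Lpl, which frees fatty acids from circulating triglyceride, rose by 0.89 (adjusted p = 0.00178) from 189.9 to 371 CPM to 391 to 563 CPM. Its inhibitor Angptl4, a PPAR and glucocorticoid target, was at 2.97, 1.40, 5.60 and 2.10 CPM in the controls and 8.89, 15.3, 4.37 and 25.8 CPM in diabetes (log2 fold change 2.18, SE 0.45, adjusted p = 6.26e-04). One diabetic library, replicate 3, fell within the range of the controls. Vldlr and Slc27a4 did not pass (0.20 and -0.37). Slc27a4 passed without control replicate 4 (-0.47, adjusted p = 0.0144).

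In activation, Acsl1, the acyl-CoA synthetase of muscle, was at 180.3 to 219.9 CPM in the controls and 252 to 309 CPM in diabetes (log2 fold change 0.49, adjusted p = 0.00248), whereas the acyl-CoA hydrolase Acot7 fell by 1.03 (adjusted p = 1.25e-04). In the carnitine shuttle, the carnitine-acylcarnitine carrier Slc25a20 rose by 0.46 (adjusted p = 0.00958), and carnitine acetyltransferase Crat by 0.37. Cpt1b, the muscle form of the rate-limiting carnitine palmitoyltransferase, was at 120.0 to 128 CPM in the controls and 138 to 170.0 CPM in diabetes, a small difference without overlap (log2 fold change 0.33, adjusted p = 0.0279). Cpt2 did not pass (-0.05), and Slc22a5, the plasma membrane carnitine transporter, fell by 0.47 (adjusted p = 0.00226). Crat was at 0.66 in the GC-adjusted fit (adjusted p = 4.59e-05). Cpt1b was at 0.64 in the GC-adjusted fit (adjusted p = 2.13e-04). Cpt1b lost its call without any one of 4 libraries, control replicates 1 and 2 and diabetic replicates 2 and 4 (0.29 to 0.33, adjusted p = 0.0539 to 0.0877).

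Within beta-oxidation the largest rise was that of Acadl, the long-chain acyl-CoA dehydrogenase, from 111, 127, 98.8 and 119 CPM to 241, 346, 368 and 346 CPM (log2 fold change 1.51, SE 0.16, adjusted p = 1.97e-06). The 4 controls lay close together and the lowest diabetic library, replicate 1, was far above them. The medium-chain enzyme Acadm rose by 0.71, the 2 subunits of the trifunctional protein Hadha and Hadhb by 0.60 and 0.77, the isomerases Ech1 and Eci2 by 0.78 and 0.71, and the electron carriers Etfa and Etfdh, which hand electrons to ubiquinone, by 0.68 and 0.50 on the log2 scale, each without overlap. Hadha and Hadhb are transcribed in opposite directions on chromosome 5 with 272 bases between their starts (30154980 and 30155253, GRCm38.p6). Hadhb was at 0.38 in the GC-adjusted fit (adjusted p = 0.00311). Acadvl (0.13) and Hadh (0.10) did not pass. Acadvl was at 0.42 in the GC-adjusted fit (adjusted p = 0.00568) and passed there. Mlycd, which degrades malonyl-CoA and so relieves the brake on fatty acid import, rose by 0.78 (adjusted p = 0.00465).

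The uncoupling protein Ucp3, a textbook fatty acid-responsive gene of muscle, was at 74.5, 38.99, 258 and 68.1 CPM in the controls and 161, 161, 63.9 and 276 CPM in diabetes (log2 fold change 0.59, adjusted p = 0.387). The groups overlapped, with control replicate 3 almost as high as the highest diabetic library and diabetic replicate 3 below 3 of the 4 controls. Ucp3 passed without control replicate 3 (1.45, adjusted p = 0.0261). The receptor Ppara did not pass (11.7 to 15.6 CPM in the controls and 9.85 to 18.6 CPM in diabetes; log2 fold change 0.05, adjusted p = 0.888). The coactivator Ppargc1a was at 8.51 to 15.1 CPM in the controls and 9.47 to 21.6 CPM in diabetes (log2 fold change 0.56, adjusted p = 0.0424). Ppargc1a was at 0.32 in the GC-adjusted fit and no longer passed (adjusted p = 0.284). Ppargc1a lost its call without any one of 6 libraries, control replicates 1, 2 and 3 and diabetic replicates 1, 2 and 4 (0.36 to 0.59, adjusted p = 0.0529 to 0.209). Cat, the peroxisomal catalase and a PPAR-responsive gene, rose from 36.98, 39.99, 38.5 and 43.1 CPM to 87.2, 122, 79.5 and 107 CPM (log2 fold change 1.32, SE 0.19, adjusted p = 2.12e-05), and no diabetic library fell below 79.5 CPM.

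Ketone body genes did not share a direction: of 8 tested, 1 was higher and 3 lower, with a median of -0.06. Oxct1, the enzyme that lets muscle burn ketone bodies, fell from 191, 192, 177 and 243 CPM to 139, 99.5, 80.04 and 145 CPM (log2 fold change -0.79, SE 0.18, adjusted p = 0.00128), while Acat1, the next enzyme of the same route, rose by 0.81 (adjusted p = 1.20e-05). Oxct1 was low in all 4 diabetic libraries and lowest in replicate 3. Slc16a3, the lactate exporter MCT4, fell by 0.95 (adjusted p = 0.00408). Slc16a3 was at -0.62 in the GC-adjusted fit (adjusted p = 0.0349).

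Of 14 genes of lipid droplets and lipolysis, 3 were higher and 2 lower. The number higher, 3 over all libraries, was 1 without control replicate 1, 2 or 4 or diabetic replicate 2 or 4 and the number lower, 2 over all libraries, was 5 without diabetic replicate 4. With the GC adjustment, 6 rose and 1 fell (median 0.21). Lipe, hormone-sensitive lipase, was at 13.2 to 21.9 CPM in the controls and 23.5 to 28.2 CPM in diabetes (log2 fold change 0.62, adjusted p = 0.00606), and G0s2, the inhibitor of the first triglyceride lipase, fell by 1.24 (adjusted p = 0.00442), with overlap. Of 29 genes of lipid and sterol synthesis, 12 were lower and 4 higher, with a median of -0.36. In the GC-adjusted fit 4 rose and 8 fell, with a median of -0.19. The 16 of fatty acid synthesis moved the other way from fatty acid use, with 8 lower and 2 higher (median -0.47). Of the 13 of cholesterol synthesis, 4 were lower and 2 higher (median -0.15). With the GC adjustment these counts were 6 and 3, and 2 and 1. Besides Scd1, the fatty acid synthase Fasn fell from 50.9, 61.7, 29.1 and 32.6 CPM to 13.8, 16.7, 17.9 and 16.3 CPM (log2 fold change -1.43, SE 0.32, adjusted p = 0.00122), the controls falling into a higher pair, replicates 1 and 2, and a lower pair, both above diabetes. The desaturases Fads2 and Fads1 fell by 1.43 and 0.83 on the log2 scale. Me1, malic enzyme, which supplies NADPH for synthesis, rose by 0.73 (adjusted p = 4.81e-05). Of the sterol genes, Dhcr7 fell by 0.95 and Fdft1, squalene synthase, rose by 0.65. Srebf1, the regulator of fatty acid synthesis, did not pass (0.19, adjusted p = 0.462). Srebf1 was at 0.56 in the GC-adjusted fit (adjusted p = 0.0452) and passed there.

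Slc2a4, which encodes GLUT4, was at 717, 659, 771 and 559 CPM in the controls and 363, 283, 226 and 474 CPM in diabetes (log2 fold change -1.01, SE 0.15, adjusted p = 3.65e-05). All 4 diabetic libraries were below all controls, replicate 3 the lowest. Hexokinase 1 (Hk1) fell by 0.77 (adjusted p = 2.19e-04), while Hk2, the insulin-responsive hexokinase of muscle, did not pass (0.25, adjusted p = 0.196). Hk2 was at 0.41 in the GC-adjusted fit (adjusted p = 0.0464) and passed there. Tbc1d4, the AKT substrate AS160 that holds GLUT4 inside the cell, rose from 24.3, 27.9, 31.4 and 31.6 CPM to 47.4, 69.9, 98.2 and 52.7 CPM (log2 fold change 1.22, SE 0.21, adjusted p = 1.35e-04). Of the 22 genes of glucose uptake and glycogen, 6 were higher and 4 lower, and glycogen genes went both ways. Ppp1r3d, a glycogen-targeting phosphatase subunit, rose by 1.04, Stbd1, a glycogen-binding protein, fell by 1.24, and the glycogen phosphorylase Pygm, among the most abundant mRNAs, did not pass (-0.28, adjusted p = 0.219). Ppp1r3a, the muscle glycogen-targeting subunit, rose by 1.69. Ppp1r3a was at 0.49 in the GC-adjusted fit (adjusted p = 0.00452). Ppp1r3c was at 145, 242, 1250.1 and 229 CPM in the controls and 535, 772, 831 and 1469 CPM in diabetes and did not pass (0.95, adjusted p = 0.196), control replicate 3 standing near the highest diabetic library. Ppp1r3c passed without control replicate 3 (2.13, adjusted p = 0.00335).

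Beside Pdk4, Pdk1 rose by 0.51 (adjusted p = 0.00204) and Pdk2, the most abundant of the 4 kinases in controls, did not pass (0.00). Pdk2 was at 0.40 in the GC-adjusted fit (adjusted p = 0.0126) and passed there. Of 14 pyruvate dehydrogenase genes, 4 were higher and 3 lower. The number lower, 3 over all libraries, was 0 without control replicate 3 or diabetic replicate 2 or 3 and 5 without diabetic replicate 1. In glycolysis, 9 of 19 genes were lower and 1 higher, with a median of -0.45. The number lower, 9 over all libraries, was 2 without diabetic replicate 3 and 4 without control replicate 3. With the GC adjustment, 1 rose and 2 fell (median -0.18). Pgam2, the muscle phosphoglycerate mutase, fell from 3474, 2983, 4279.9 and 2900.0 CPM to 2089, 1369.7, 555 and 1797 CPM (log2 fold change -1.23, SE 0.28, adjusted p = 0.00154), and diabetic replicate 3 was again the lowest. The one riser, Fbp2, the muscle fructose bisphosphatase, which works in the reverse direction of the pathway at another step than Pgam2, went from 33.9, 39.5, 43.2 and 45.4 CPM to 88.7, 147, 93.8 and 117 CPM (log2 fold change 1.46, SE 0.21, adjusted p = 2.03e-05). Gapdh was at 13266 to 19909.5 CPM in the controls and 8844 to 11482 CPM in diabetes (log2 fold change -0.58, adjusted p = 0.0147). Gapdh was at -0.23 in the GC-adjusted fit and no longer passed (adjusted p = 0.279). Gapdh lost its call without any one of 2 libraries, control replicate 3 and diabetic replicate 3 (-0.50 to -0.45, adjusted p = 0.0542 to 0.0752).

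Subunits of the respiratory chain fell together. Of 75 nuclear genes of oxidative phosphorylation tested, 58 were lower and 0 higher, with a median of -0.56, and between 47 and 62 were called when 1 library was left out. In the GC-adjusted fit 0 rose and 36 fell, with a median of -0.31. By complex, 28 of 37 fell in complex I, 6 of 9 in complex III, 12 of 14 in complex IV with cytochrome c and 12 of 15 in ATP synthase, and 16, 3, 8 and 9 in the GC-adjusted fit. The deviation of the list from the control mean was -0.08, -0.04, 0.18 and -0.06 in the controls and -0.35, -0.61, -0.91 and -0.34 in diabetes (log2), with no overlap and replicate 3 at the extreme of each group. The plot of list level against the AT-rich minus GC-rich index shows that the diabetic library with the highest index is also the lowest for this list, for glycolysis and for the collagens. In bulk tissue, fewer cells of a type and less RNA per cell cannot be told apart.

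**Figure D3:**
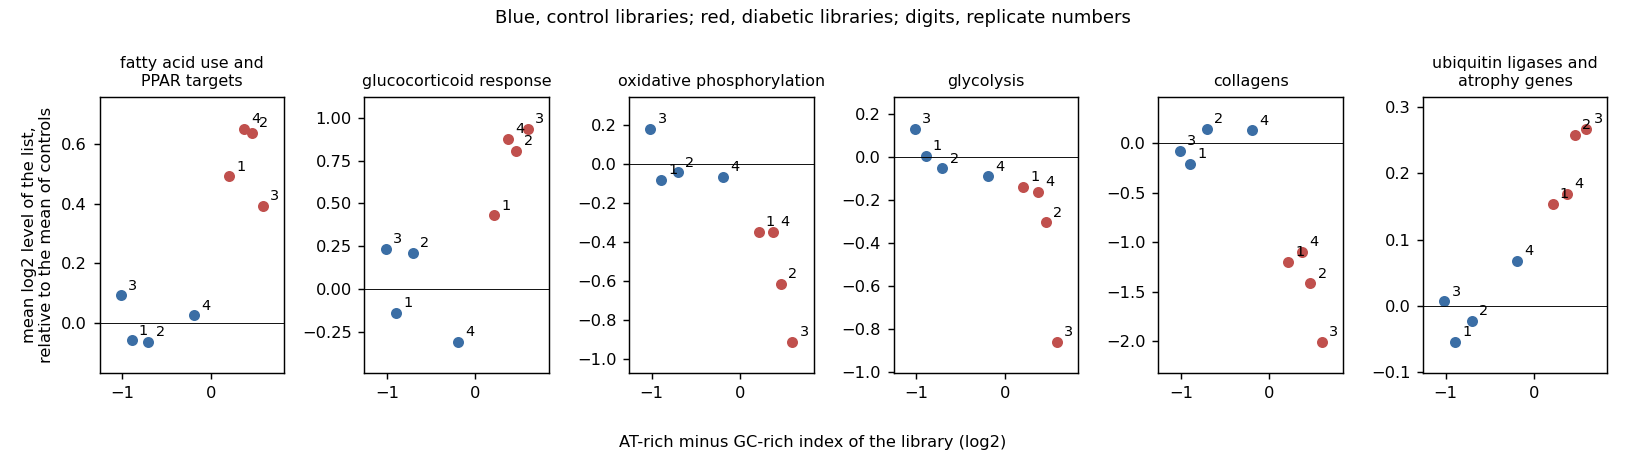
Mean log2 level (CPM + 0.5) of the tested members of 6 gene lists in each library, relative to the mean of the 4 controls, against the AT-rich minus GC-rich index of the library (log2); blue, control; red, diabetes; digits, replicate numbers. The groups separate on both axes in every panel, and diabetic replicate 3 has the highest index.

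Among single subunits, Atp5g1, which encodes the c subunit of the ATP synthase rotor, fell from 639, 631, 879 and 527 CPM to 425, 329, 297 and 401 CPM (log2 fold change -0.88, SE 0.14, adjusted p = 4.10e-05), with no overlap and -0.96, adjusted p = 8.66e-05 in the GC-adjusted fit. Atp5k, a membrane subunit of the same enzyme, fell by 1.45, Cox5b by 1.08 and Cox7a1, the muscle isoform of a cytochrome oxidase subunit, by 1.15 on the log2 scale. Atp5k was at -0.91 in the GC-adjusted fit (adjusted p = 4.07e-04). Cox5b was at -0.65 in the GC-adjusted fit (adjusted p = 0.00160). Cox7a1 was at -0.65 in the GC-adjusted fit (adjusted p = 0.0183). Of 18 citric acid cycle genes, 3 were higher and 5 lower, against 17.8% and 15.5% of all genes, and 2 and 4 in the GC-adjusted fit. Idh2, the NADP-linked isocitrate dehydrogenase, rose from 160.0, 163, 113 and 182 CPM to 236, 299, 295 and 298 CPM (log2 fold change 0.87, SE 0.17, adjusted p = 4.43e-04), while Dlst and Sdhc fell by 0.42 and 0.52. Of 23 mitochondrial regulators, 5 were higher and 6 lower. The number lower, 6 over all libraries, was 3 without control replicate 3 or diabetic replicate 3. For mitochondrial regulators, the GC-adjusted fit called 5 higher and 3 lower, with the median at 0.13 in place of 0.09. The mitochondrial transcription factor Tfam rose by 0.59 and Gabpa, a regulator of respiratory genes, by 1.10, against the direction of the subunits. Tfam was at 0.31 in the GC-adjusted fit (adjusted p = 0.0130). Gabpa was at 0.55 in the GC-adjusted fit (adjusted p = 0.0110). The deacetylase Sirt3 and the retinoid receptor Rxrg fell by 0.73 and 0.84.

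In the insulin pathway, both receptors and 3 of the 4 FOXO factors tested rose. Of 31 genes of insulin and IGF signalling, 11 were higher and 6 lower. The insulin receptor Insr was at 27.6, 33.2, 33.02 and 35.8 CPM in the controls and 42.3, 57.3, 86.7 and 51.8 CPM in diabetes (log2 fold change 0.88, SE 0.19, adjusted p = 9.04e-04) and the IGF-1 receptor Igf1r at 4.27 to 6.32 CPM in the controls and 7.24 to 15.4 CPM in diabetes (log2 fold change 1.04, adjusted p = 9.38e-04). Both receptors were highest in diabetic replicate 3, and neither overlapped with the controls. Pik3r1, the regulatory subunit of PI3-kinase, rose from 7.91, 9.76, 11.2 and 12.02 CPM to 20.1, 55.01, 66.5 and 50.1 CPM (log2 fold change 2.23, SE 0.29, adjusted p = 8.84e-06), diabetic replicate 1 standing lower than the other 3. The adaptors Irs1 and Irs2 did not pass (-0.37 and -0.12). Grb14, an adaptor that inhibits the insulin receptor, fell by 1.21 (adjusted p = 0.00134) and Pdpk1, the kinase that activates AKT, rose by 0.49.

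Of the FOXO factors, Foxo4 was at 116, 125, 99.3 and 136 CPM in the controls and 214, 242, 288 and 222 CPM in diabetes (log2 fold change 1.02, SE 0.12, adjusted p = 4.75e-06). Foxo3 was at 5.37, 7.94, 9.28 and 6.33 CPM in the controls and 9.29, 11.1, 14.6 and 14.5 CPM in diabetes (log2 fold change 0.77, SE 0.22, adjusted p = 0.00866), the highest control just below the lowest diabetic library. Foxo1 was at 15.5, 20.9, 41.3 and 16.7 CPM in the controls and 33.7, 52.2, 69.2 and 80.1 CPM in diabetes (log2 fold change 1.32, SE 0.41, adjusted p = 0.0148); control replicate 3 lay above diabetic replicate 1. Foxo1 lost its call without control replicate 1 (1.17, adjusted p = 0.0536). Foxo6 fell from 13.6, 13.3, 10.1 and 12.2 CPM to 5.25, 4.10, 1.97 and 3.53 CPM (log2 fold change -1.73, SE 0.29, adjusted p = 9.15e-05), opposite in direction to the other 3 factors. Among secreted factors, Igf1 was at 7.002 to 17.2 CPM in the controls and 5.91 to 7.57 CPM in diabetes (log2 fold change -0.78, adjusted p = 0.0316), and Igfbp5, the abundant IGF-binding protein of muscle, fell from 652, 684, 594 and 912 CPM to 414, 234, 88.7 and 206 CPM (log2 fold change -1.59, SE 0.34, adjusted p = 8.77e-04). Igf1 was at -1.18 in the GC-adjusted fit (adjusted p = 0.00353). Igf1 lost its call without any one of 5 libraries, control replicates 3 and 4 and diabetic replicates 1, 2 and 3 (-0.76 to -0.50, adjusted p = 0.0642 to 0.193). Of 20 mTORC1 and translation regulators, 5 were higher and 1 lower. The number higher, 5 over all libraries, was 3 without diabetic replicate 3. Sesn1, an inhibitor of mTORC1 and a FOXO and p53 target, rose by 1.45, and Eif4ebp1, the repressor of cap-dependent translation, by 1.42. Ddit4, the mTORC1 inhibitor REDD1 and a glucocorticoid target, was at 46.9, 86.5, 27.1 and 19.03 CPM in the controls and 75.8, 111, 149.8 and 175 CPM in diabetes (log2 fold change 1.51, adjusted p = 0.0282), with control replicate 2 above diabetic replicate 1. Sesn1 was at 0.94 without diabetic replicate 3. Eif4ebp1 lost its call without diabetic replicate 3 (0.86, adjusted p = 0.0965). Ddit4 lost its call without any one of 5 libraries, control replicates 1, 3 and 4 and diabetic replicates 3 and 4 (1.26 to 1.53, adjusted p = 0.0581 to 0.0901).

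Glucocorticoid-responsive genes were mostly higher: 11 of 21 rose and 1 fell, with a median of 0.89. The number higher, 11 over all libraries, was 7 without control replicate 1 or 4. With the GC adjustment, 11 rose and 1 fell (median 1.08). Cebpb, a transcription factor induced by glucocorticoids, was at 19.8, 44.1, 32.9 and 17.7 CPM in the controls and 56.1, 76.4, 55.99 and 64.6 CPM in diabetes (log2 fold change 1.14, SE 0.28, adjusted p = 0.00250). Of 2 direct targets of the receptor, Klf9 was at 53.1, 71.5, 47.1 and 62.7 CPM in the controls and 118, 155, 135 and 133 CPM in diabetes (log2 fold change 1.20, SE 0.19, adjusted p = 4.80e-05) and Klf15 at 18.1, 23.7, 17.5 and 14.9 CPM in the controls and 26.1, 40.4, 42.03 and 42.99 CPM in diabetes (log2 fold change 1.03, SE 0.26, adjusted p = 0.00335). Zbtb16 rose by 0.92 (adjusted p = 0.00918). None of these 4 overlapped between groups, which held for 7 of the 21 tested in this list and for 30.1% of all genes. Fkbp5, the co-chaperone widely used as a readout of the receptor, overlapped and did not pass (44.1 to 89.5 CPM in the controls and 62.4 to 137 CPM in diabetes; 0.54, adjusted p = 0.282). Cebpd rose by 1.54 and Glul, glutamine synthetase, by 1.28. The receptor gene Nr3c1 rose by 0.77. Amd1, the polyamine enzyme listed here as glucocorticoid-responsive, was the one member that fell. Cebpd lost its call without any one of 3 libraries, control replicates 3 and 4 and diabetic replicate 3 (1.005 to 1.41, adjusted p = 0.0523 to 0.127). Glul lost its call without any one of 3 libraries, control replicates 1 and 4 and diabetic replicate 4 (1.01 to 1.17, adjusted p = 0.0530 to 0.0702). Nr3c1 was at 0.47 in the GC-adjusted fit (adjusted p = 0.00994).

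Of 17 circadian clock genes and outputs, 8 were higher and 1 lower, with a median of 0.47. The number higher, 8 over all libraries, was 5 without control replicate 3 or diabetic replicate 3. In the GC-adjusted fit 6 rose and 0 fell, with a median of 0.60. Rora, the orphan receptor that activates Bmal1, rose from 2.45, 4.08, 2.36 and 5.41 CPM to 8.72, 18.6, 25.7 and 14.6 CPM (log2 fold change 2.24, SE 0.28, adjusted p = 6.32e-06). Every diabetic library was above every control. The repressor Cry2 and the output factor Tef rose by 0.86 and 0.60 on the log2 scale, and Nr1d1, which encodes REV-ERB-alpha and opposes the ROR receptors, fell from 105 to 254 CPM to 38 to 96.1 CPM (log2 fold change -1.24, adjusted p = 0.00872). Nr1d1 was at -0.98 in the GC-adjusted fit and no longer passed (adjusted p = 0.0509). The time of day at which muscle was taken is not given, and its part in these values was not tested.

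The second muscle ubiquitin ligase of atrophy, Trim63 (MuRF1), was at 168, 217, 174 and 214 CPM in the controls and 279, 516, 941 and 647 CPM in diabetes (log2 fold change 1.63, SE 0.45, adjusted p = 0.00668). The controls lay within a narrow range, and diabetic replicate 1 was only slightly above it while replicate 3 was the highest. Its promoter is shown because motifs of the 2 regulators named in the background stand side by side in it. It was thus chosen for holding them, and their part in the rise was not tested. The 250 bases before the start of Trim63 (chr4:134314870-134315119, plus strand, RefSeq GRCm38.p6) are given 5′ to 3′, with the glucocorticoid receptor motif (GNACA, any 3 bases, TGTNC), the forkhead (FOXO) motif TGTTTAC and the TATA box TATAAA in capitals, all searched on both strands.
Trim63: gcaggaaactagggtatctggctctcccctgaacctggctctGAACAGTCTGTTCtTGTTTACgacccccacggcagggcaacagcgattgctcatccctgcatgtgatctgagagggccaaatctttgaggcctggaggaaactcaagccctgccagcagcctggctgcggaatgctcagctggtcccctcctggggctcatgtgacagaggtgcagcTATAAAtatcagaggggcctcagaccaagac
The glucocorticoid receptor motif lay 208 to 196 bases before the start, the forkhead motif next to it at 194 to 188 and the TATA box at 31 to 26. TGTTTAC was in 956 of 27025 promoters of this length (3.54%) and in 2 of the 26 promoters of the ubiquitin ligase list, those of Trim63 and Mdm2 (the ligase of p53; log2 fold change 0.40, adjusted p = 0.0196), and the glucocorticoid receptor motif was in 119 of 27025 (0.44%) and in 1 of the 26. The looser forkhead motif TGTTTNC (N, any base) was in 4 of the 26 (15.4%) against 19.9% of all promoters. In all, 10 motifs were searched, among them the E-box CACGTG, found in 5 of the 26 (19.2%) against 6.86%. Mdm2 was at 0.31 in the GC-adjusted fit and no longer passed (adjusted p = 0.0634). Mdm2 lost its call without any one of 2 libraries, control replicate 3 and diabetic replicate 3 (0.26 to 0.34, adjusted p = 0.0773 to 0.122).

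Of 33 ubiquitin ligases and atrophy genes, 12 were higher and 3 lower, with a median of 0.17. With the GC adjustment, 8 rose and 4 fell (median -0.01). Siah1a, a ligase, rose by 1.30, and Fbxl22, a sarcomeric F-box protein, fell by 1.05 (adjusted p = 0.00518). Siah1a was at 0.84 in the GC-adjusted fit (adjusted p = 0.0183). In the proteasome, 3 were higher and 4 lower of 34, with a median of 0.06. The number lower, 4 over all libraries, was 1 without control replicate 3 or diabetic replicate 3 and 2 without control replicate 1 or diabetic replicate 2. For the proteasome, the GC-adjusted fit called 5 higher and 4 lower, with the median at 0.10 in place of 0.06. Of 38 autophagy and lysosome genes, 9 rose and 3 fell, against 17.8% and 15.5% of all genes. The number lower, 3 over all libraries, was 1 without control replicate 1 or 3 or diabetic replicate 2 or 3. By part, 7 rose and 1 fell of 23 autophagy genes, and 2 rose and 2 fell of 15 lysosome genes (medians 0.14 and -0.16). For autophagy and lysosome, the GC-adjusted fit called 10 higher and 1 lower, with the median at 0.13 in place of 0.09. Bnip3, a mitophagy receptor and FOXO3 target, rose from 165, 174, 161 and 172 CPM to 224, 297, 403 and 283 CPM (log2 fold change 0.84, SE 0.17, adjusted p = 6.87e-04), with 4 controls close together. Cathepsin L (Ctsl) was at 55.8 to 66.6 CPM in the controls and 78.5 to 160.1 CPM in diabetes (log2 fold change 0.92, adjusted p = 4.57e-04), and Nbr1, an autophagy cargo receptor, rose by 0.44. Map1lc3b, the LC3 gene, rose by 0.39 and Gabarapl1, also a FOXO target, did not pass (0.27). Map1lc3b lost its call without any one of 2 libraries, control replicate 2 and diabetic replicate 3 (0.30 to 0.35, adjusted p = 0.0533 to 0.0909).

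In the myostatin and activin pathway, which restrains muscle mass, 7 of 20 genes were higher and 1 lower. For the myostatin and activin pathway, the GC-adjusted fit called 6 higher and 3 lower, with the median at 0.25 in place of -0.04. Mstn itself was at 32.01 to 58.9 CPM in the controls and 61.02 to 84.7 CPM in diabetes (log2 fold change 0.50, adjusted p = 0.0238). Mstn turned to -0.57 (adjusted p = 0.0260) in the GC-adjusted fit. Mstn lost its call without any one of 3 libraries, control replicate 1 and diabetic replicates 2 and 4 (0.34 to 0.48, adjusted p = 0.0502 to 0.110). The type I receptor Acvr1b was at 36.7 to 47.7 CPM in the controls and 56.7 to 105 CPM in diabetes (log2 fold change 0.91, adjusted p = 3.94e-04). Smad3, which carries the signal into the nucleus, fell from 116, 111, 131 and 124 CPM to 64.2, 42.6, 19.9 and 63.03 CPM (log2 fold change -1.34, SE 0.27, adjusted p = 4.83e-04). Smad4, the common partner of SMAD proteins, rose by 0.49. The fall of Smad3 was seen in all 4 diabetic libraries, most in replicate 3. Cytosolic ribosomal protein genes had a median of 0.07 with 3 higher and 2 lower of 41, and a median of 0.35 with 23 higher and 0 lower in the GC-adjusted fit, so that their count depends on that correction. The number higher, 3 over all libraries, was 1 without control replicate 2 or diabetic replicate 3 and the number lower, 2 over all libraries, was 1 without control replicate 3 or diabetic replicate 2 or 4 and 5 without diabetic replicate 3.

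**Figure D4:**
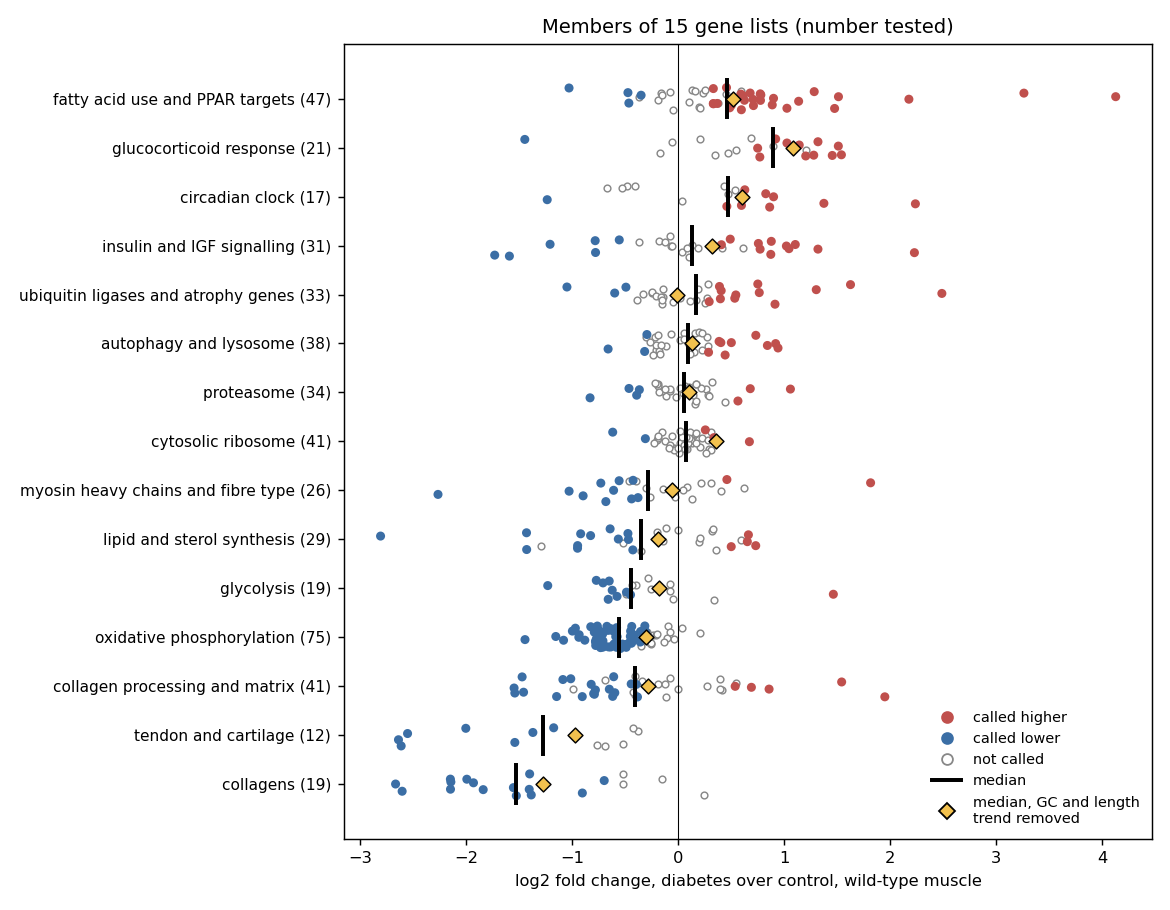
Log2 fold change (diabetes over control, WT muscle) of each tested member of 15 gene lists, with the number tested in brackets: red, called higher; blue, called lower; open, not called; black bar, the list's median; diamond, its median in the fit with the GC and length trend removed. Collagens lie farthest below 0 and fatty acid use and the glucocorticoid response above it, and the diamonds of ribosome, glycolysis and oxidative phosphorylation lie to the right of their bars.

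Collagens had the lowest median of the lists described. Of 19 collagen genes tested, 15 fell and 0 rose, with a median of -1.53. In the GC-adjusted fit 0 rose and 14 fell, with a median of -1.27. Col1a1, the main chain of type I collagen, was at 187, 258, 215 and 239.8 CPM in the controls and 47.1, 33.4, 12.6 and 48.7 CPM in diabetes (log2 fold change -2.67, SE 0.44, adjusted p = 8.26e-05). Col1a1 was chosen among genes without overlap, and its diabetic replicate 3 stood below the other 3. Col3a1, the chain of reticular fibres, was at 169.7, 216, 217 and 189.8 CPM in the controls and 54.3, 43.6, 12.7 and 68.4 CPM in diabetes (log2 fold change -2.14, SE 0.51, adjusted p = 0.00217) and Col5a3 at 20.01 to 32.9 CPM in the controls and 3.42 to 5.65 CPM in diabetes (log2 fold change -2.60). Col4a1, of basement membranes, was at 169, 205, 168 and 223 CPM in the controls and 77.5, 73.2, 55.5 and 86.1 CPM in diabetes (log2 fold change -1.39, SE 0.24, adjusted p = 1.41e-04). Col6a1, of microfibrils, fell by 1.53.

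Of 41 genes that process collagen or make other matrix, 19 were lower and 5 higher, with a median of -0.41. The number higher, 5 over all libraries, was 3 without diabetic replicate 4. Serpinh1, the collagen chaperone HSP47, fell from 79.6, 66.6, 82.98 and 73.8 CPM to 29.2, 25.8, 24.9 and 29.3 CPM (log2 fold change -1.47, SE 0.19, adjusted p = 7.95e-06). Sparc, a collagen-binding glycoprotein, fell by 1.09, fibrillin 1 (Fbn1) by 1.55 and Loxl2 by 1.46 on the log2 scale, each without overlap. Lox, the lysyl oxidase that crosslinks collagen, went the other way at 1.82 to 3.25 CPM in the controls and 3.32 to 10.7 CPM in diabetes (log2 fold change 1.54, adjusted p = 1.42e-04), as did Timp3, an inhibitor of matrix proteases (0.86, adjusted p = 7.86e-05). Lox was at 1.03 in the GC-adjusted fit (adjusted p = 0.00270).

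Tendon and cartilage genes fell as well, 7 of 12 with 0 higher and a median of -1.27. Tnmd, tenomodulin, was at 5.45, 6.93, 4.50 and 10.6 CPM in the controls and 1.62, 1.11, 0.882 and 1.07 CPM in diabetes (log2 fold change -2.55, SE 0.39, adjusted p = 3.79e-05) and Chad, chondroadherin, at 27.3, 25.7, 19.1 and 27.1 CPM in the controls and 7.58, 3.89, 1.47 and 3.07 CPM in diabetes (log2 fold change -2.64, SE 0.35, adjusted p = 1.07e-05). Both were lowest in diabetic replicate 3. Fmod, fibromodulin, was at 135 to 185 CPM in the controls and 39.1 to 77.9 CPM in diabetes, Comp at 7.97 to 10.3 CPM in the controls and 1.69 to 5.51 CPM in diabetes and Thbs4 at 76.5 to 112 CPM in the controls and 35.4 to 43.98 CPM in diabetes (log2 fold changes -1.54, -1.37 and -1.17). The tendon transcription factor Scx did not pass (5.08 to 9.79 CPM in the controls and 3.86 to 9.68 CPM in diabetes; -0.38, adjusted p = 0.337). Scx passed without diabetic replicate 4 (-0.76, adjusted p = 0.0456). Tnmd, Chad, Fmod, Comp, Thbs4 and Scx are also tenocyte markers, so the sum of these markers repeats their values. The summed level of the 7 tenocyte markers, 5 of them lower and 0 higher, was 279 to 318 CPM in the controls and 85.98 to 142 CPM in diabetes. That of the 8 markers of fibro-adipogenic progenitors, the collagen-making cells between fibres, came to 252 to 391 CPM and 339 to 431 CPM, with 2 higher and 1 lower. The number higher, 2 over all libraries, was 0 without diabetic replicate 4 and 1 without control replicate 1 or 3 and the number lower, 1 over all libraries, was 0 without control replicate 1, 2, 3 or 4 or diabetic replicate 1, 2 or 3. For markers of fibro-adipogenic progenitors, the GC-adjusted fit called 0 higher and 0 lower, with the median at -0.08 in place of -0.07. Pdgfra, their defining receptor, was at 11.9 to 19.3 CPM in the controls and 14.5 to 19.9 CPM in diabetes (log2 fold change 0.35, adjusted p = 0.0588). Pdgfra passed without any one of 2 libraries, control replicate 4 and diabetic replicate 1 (0.45 to 0.53, adjusted p = 0.00388 to 0.0184). The part of tendon carried with the muscle in these values was not tested.

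In the contractile apparatus, 10 of 26 genes were lower and 2 higher, with a median of -0.28. The number higher, 2 over all libraries, was 1 without control replicate 1, 2 or 3 or diabetic replicate 3 or 4 and the number lower, 10 over all libraries, was 6 without control replicate 3 or diabetic replicate 3. With the GC adjustment, 2 rose and 4 fell (median -0.06). Myh1, the IIx myosin heavy chain, fell from 4134, 3402, 5409 and 4449.8 CPM to 1910.2, 2309, 2716 and 2405 CPM (log2 fold change -0.90, SE 0.17, adjusted p = 3.38e-04), while the heavy chains Myh4 and Myh2 did not pass (-0.30 and -0.26). Every diabetic library was below every control for Myh1. The fast light chain Myl1 was at 12753 to 15887 CPM in the controls and 3382 to 9066 CPM in diabetes (log2 fold change -1.03, adjusted p = 0.00361). The embryonic myosin Myh3 was low in all libraries and rose from 1.29, 2.85, 2.94 and 3.06 CPM to 5.42, 5.56, 19.6 and 5.09 CPM (log2 fold change 1.81, SE 0.41, adjusted p = 0.00155). Myh3 was at 1.08 without diabetic replicate 3. Of 21 calcium handling genes, 4 were higher and 5 lower. The number lower, 5 over all libraries, was 3 without control replicate 3 or diabetic replicate 2 or 3. For calcium handling, the GC-adjusted fit called 5 higher and 1 lower, with the median at 0.10 in place of -0.18. Besides Trdn, the cardiac and slow calsequestrin Casq2 rose from 10.6, 11.8, 5.63 and 10.96 CPM to 14.8, 22.2, 30.2 and 22.5 CPM (log2 fold change 1.20, SE 0.24, adjusted p = 5.13e-04), and Jph1, which holds the triad together, by 0.66. The fast calsequestrin Casq1 fell by 0.93. Casq1 was at -0.74 in the GC-adjusted fit and no longer passed (adjusted p = 0.0781). Casq1 lost its call without any one of 3 libraries, control replicate 3 and diabetic replicates 2 and 3 (-0.89 to -0.65, adjusted p = 0.0573 to 0.0779).

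In creatine and polyamine metabolism, beside Gamt, the mitochondrial creatine kinase Ckmt2 fell from 915, 947, 1185 and 923 CPM to 613, 434, 241 and 599.8 CPM (log2 fold change -1.07, SE 0.25, adjusted p = 0.00161). Amd1, which makes the aminopropyl donor for polyamines, was at 1328, 1679.6, 2566 and 2069 CPM in the controls and 1429.8, 642, 205 and 526 CPM in diabetes (log2 fold change -1.45, SE 0.43, adjusted p = 0.0116); diabetic replicate 1 lay within the controls and the other 3 below them. Smox, spermine oxidase, was at 656, 569, 1506 and 543 CPM in the controls and 498, 185, 49.9 and 208 CPM in diabetes (log2 fold change -1.80, SE 0.51, adjusted p = 0.00789), with control replicate 3 far above the other controls. Smox lost its call without control replicate 3 (-1.32, adjusted p = 0.0556). In the whole list of amino acid and creatine metabolism, 9 of 41 were lower and 5 higher. The number higher, 5 over all libraries, was 3 without control replicate 1. For amino acid and creatine metabolism, the GC-adjusted fit called 3 higher and 7 lower, with the median at -0.10 in place of -0.24.

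Of the chaperones, 4 rose and 10 fell of 23, with Hspa8, the constitutive HSC70, down by 0.82 (adjusted p = 0.00916) and Hsp90aa1 up by 0.77 (adjusted p = 0.00390). For heat shock and chaperones, the GC-adjusted fit called 3 higher and 6 lower, with the median at -0.11 in place of -0.33. Of p53 targets, 6 rose and 0 fell of 17. The number higher, 6 over all libraries, was 3 without diabetic replicate 3. For p53 targets and growth arrest, the GC-adjusted fit called 7 higher and 1 lower, with the median at 0.62 in place of 0.34. Gadd45g was at 10.2, 10.4, 10.2 and 10.03 CPM in the controls and 19.96, 19.4, 22.6 and 23.6 CPM in diabetes (log2 fold change 1.07, SE 0.27, adjusted p = 0.00333), and Gadd45a, a denervation and fasting gene, rose by 1.54 with overlap. Of the integrated stress and unfolded protein response, 5 rose and 1 fell of 21, the chaperone BiP (Hspa5) rising by 0.56. The number higher, 5 over all libraries, was 3 without diabetic replicate 3. For the integrated stress and unfolded protein response, the GC-adjusted fit called 5 higher and 0 lower, with the median at 0.26 in place of 0.09. Of antioxidant genes, 3 rose and 3 fell of 22, Gpx3 rising by 0.83. For oxidative stress and NRF2, the GC-adjusted fit called 4 higher and 5 lower, with the median at 0.03 in place of -0.07. Of immediate early genes, 4 rose and 2 fell of 16. The number higher, 4 over all libraries, was 2 without control replicate 3 or diabetic replicate 3 and the number lower, 2 over all libraries, was 0 without control replicate 1 or 2 or diabetic replicate 2, 3 or 4 and 1 without control replicate 4. For immediate early genes and Nr4a, the GC-adjusted fit called 4 higher and 0 lower, with the median at 0.10 in place of -0.17.

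Of genes of the neuromuscular junction and denervation, 5 rose and 2 fell of 18. The number higher, 5 over all libraries, was 2 without control replicate 1 or diabetic replicate 3 and 3 without control replicate 3 or 4 or diabetic replicate 2 and the number lower, 2 over all libraries, was 1 without control replicate 2 or 3 or diabetic replicate 2 or 3. For the neuromuscular junction and denervation, the GC-adjusted fit called 3 higher and 1 lower, with the median at 0.25 in place of 0.04. Myod1, a myogenic factor of fast fibres and satellite cells, fell from 19.4, 20.2, 13 and 21.5 CPM to 8.14, 8.45, 7.38 and 6.80 CPM (log2 fold change -1.27, SE 0.24, adjusted p = 2.71e-04), whereas Myog did not pass (-0.16, adjusted p = 0.692). Of angiogenesis and hypoxia genes, 3 rose and 4 fell of 17. The number lower, 4 over all libraries, was 2 without diabetic replicate 2 or 3. Of Notch pathway genes, 6 rose and 4 fell of 25, and Nrarp, a feedback target of Notch, fell by 1.36 (adjusted p = 0.00440). For Notch signalling, the GC-adjusted fit called 4 higher and 1 lower, with the median at 0.11 in place of -0.14. Of inflammation and interferon genes, 3 rose and 1 fell of 18. The number lower, 1 over all libraries, was 0 without control replicate 4 or diabetic replicate 4. For inflammation and interferon genes, the GC-adjusted fit called 7 higher and 2 lower, with the median at 0.28 in place of 0.16. The cytokines Tnf, Il1b and Il6 were below 0.2 CPM in every library and did not enter the test.

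Markers of other cells in the muscle were summed for each library. The 13 macrophage and leukocyte markers came to 78 to 89.5 CPM in the controls and 70.1 to 85.6 CPM in diabetes (2 of 13 tested higher and 1 lower), and Cd163, a receptor of resident macrophages, rose by 0.65 (adjusted p = 0.00247). For macrophage markers the number higher, 2 over all libraries, was 1 without control replicate 1, 2 or 3 or diabetic replicate 2, 3 or 4 and the number lower, 1 over all libraries, was 0 without control replicate 1, 2 or 4 or diabetic replicate 1, 2, 3 or 4. For markers of macrophages and leukocytes, the GC-adjusted fit called 1 higher and 0 lower, with the median at -0.01 in place of -0.22. The 13 endothelial markers came to 343 to 424 CPM in the controls and 281 to 351 CPM in diabetes (0 of 13 tested higher and 3 lower). For markers of endothelial cells, the GC-adjusted fit called 1 higher and 3 lower, with the median at -0.12 in place of -0.32. Pericyte and smooth muscle markers came to 109 to 134 CPM in the controls and 112 to 149 CPM in diabetes when Des, desmin, which muscle fibres make in quantity, was left out (1 of 8 tested higher and 3 lower with it), and Acta2, the defining smooth muscle actin, was listed at 0 in all 8 libraries. The part of the annotation used for counting in this 0 was not tested. For markers of pericytes and smooth muscle, the GC-adjusted fit called 2 higher and 3 lower, with the median at 0.08 in place of -0.18. Satellite cell markers without Des came to 108 to 141 CPM in the controls and 121 to 169.9 CPM in diabetes (2 of 7 tested higher and 0 lower with it), Pax7, which defines these cells, being at 0.962 to 2.59 CPM in the controls and 1.04 to 1.84 CPM in diabetes and not passing (-0.25, adjusted p = 0.552). For satellite cell markers the number higher, 2 over all libraries, was 1 without control replicate 1, 2 or 3 or diabetic replicate 2, 3 or 4.

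Schwann cell markers came to 41.5 to 79.5 CPM in the controls and 41.8 to 57.8 CPM in diabetes (1 of 7 tested higher and 0 lower), adipocyte markers to 28.4 to 72.7 CPM in the controls and 21.5 to 87.7 CPM in diabetes (0 of 7 tested higher and 1 lower) and red blood cell markers to 262 to 548 CPM in the controls and 305 to 408 CPM in diabetes (0 of 4 tested higher and 0 lower), each with overlap. For Schwann cell markers the number lower, 0 over all libraries, was 1 without control replicate 3. For adipocyte markers the number lower, 1 over all libraries, was 4 without diabetic replicate 4. The 7 T and B cell markers summed to 0.186 to 0.444 CPM in the controls and 0 to 0.359 CPM in diabetes, with Cd3d at 0 in all 8 libraries, and the 5 neutrophil markers to 0.0566 to 0.681 CPM in the controls and 0 to 0.211 CPM in diabetes, with Ly6g at 0 in all 8, levels near the floor of detection. The part of other cell types in the results was not tested.

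The same treatment in Notch2-mKO muscle used other diabetic and control libraries. Notch2 itself was at 1.25 to 2.55 CPM in their controls and 1.14 to 2.15 CPM in their diabetic libraries, next to 1.76 to 1.92 CPM in the WT controls. Cells other than fibres keep the gene, and counts over the whole gene need not show a deletion of part of it. The part of either in these values was not tested. The treatment called 398 genes higher (3.05%) and 332 lower (2.54%), and 665 of these 730 (5.59% of all genes tested) were called in the same direction in WT, which is 91.1% of the calls in Notch2-mKO and 15.3% of those in WT, with 0 in the opposite direction. Of the 4354 genes called in WT, 4211 (96.7%) had the same sign in Notch2-mKO muscle, against 70.1% of the genes not called in WT. The AT-rich minus GC-rich index there was 0.05, -0.63, -0.35 and -0.40 in the controls and 0.33, 0.08, -0.03 and 0.25 in diabetes, with overlap. With the GC and length trend removed in both genotypes, 96.7% of the genes called in WT in that fit had the same sign in Notch2-mKO muscle. Acot1 rose there by 3.51, Pdk4 by 1.68, Fabp3 by 1.09 and Acadl by 1.01 on the log2 scale, and Scd1, Gamt and Col1a1 fell by 2.14, 2.01 and 2.14 (all with adjusted p below 0.05). Fbxo32, Trim63, Foxo1 and Klf15 were at 1.25, 0.84, 0.68 and 0.63 and did not pass (adjusted p = 0.175, 0.262, 0.332 and 0.140). By list, 15 rose and 0 fell of 47 genes of fatty acid use, 0 rose and 24 fell of 75 of oxidative phosphorylation, 0 rose and 15 fell of 19 collagens, 3 rose and 0 fell of 21 glucocorticoid-responsive genes and 0 rose and 1 fell of 33 ubiquitin ligases and atrophy genes. Pdk4 lost its call without any one of control replicates 1, 2 and 4 and diabetic replicates 1, 2, 3 and 4 (adjusted p = 0.0542 to 0.126). Scd1 lost its call without any one of control replicate 4 and diabetic replicates 2, 3 and 4 (adjusted p = 0.0516 to 0.0792). The list counts below are to be read beside the calls over all genes in the same refits. The 730 calls became 995, 275, 320 and 153 without control replicates 1 to 4. They became 346, 257, 310 and 178 without diabetic replicates 1 to 4. For fatty acid use, 15 higher became 8 without control replicate 4 and 9 without diabetic replicate 2. For oxidative phosphorylation, 24 lower became 4 without diabetic replicate 3 or 4 and 5 without control replicate 4 or diabetic replicate 2 and 6 without control replicate 3 and 11 without control replicate 2. For collagens, 15 lower became 4 without control replicate 4 and 5 without diabetic replicate 4. For the glucocorticoid response, 3 higher became 0 without control replicate 4 or diabetic replicate 4 and 1 without control replicate 3 or diabetic replicate 1. For ubiquitin ligases, 0 higher became 1 without control replicate 3 and 3 without control replicate 1 and 1 in the GC-adjusted fit and 1 lower became 0 without control replicate 2 or 4 or diabetic replicate 2 or 3.

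The difference between the 2 responses, tested in the same edgeR fit, passed for 0 genes (smallest adjusted p = 0.414), with 1142 genes at an unadjusted p below 0.05, and DESeq2 called 1. Without WT control replicate 4, 60 genes passed with a larger response in WT and 2 with a smaller one. For Fbxo32 the WT response minus that of Notch2-mKO was 1.24 ± 0.77 (SE) on the log2 scale, for Trim63 0.78 ± 0.62 and for Pdk4 1.10 ± 0.66. A difference in response that did not pass does not show that the genotypes respond alike. The count of calls in Notch2-mKO moved from 153 without its control replicate 4 to 995 without its control replicate 1.

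Diabetes was set against the other form of wasting, hindlimb unloading, by a direct test of the diabetic against the unloaded WT libraries, which share no control. It called 302 genes higher in diabetes (2.31%) and 162 lower (1.24%), together 3.56% of genes tested and 4.09% in the GC-adjusted fit. Of 47 genes of fatty acid use 20 were higher and 1 lower. Acot1 was higher in diabetes by 3.43, Angptl4 by 2.71, Fabp3 by 1.96, Pdk4 by 1.87 and Slc27a1 by 1.15 on the log2 scale. In the unloaded libraries Fabp3 was at 129 to 204 CPM, below the 4 WT controls. Ddit4 (3.73, adjusted p = 5.55e-04), Ppp1r3c (3.31, adjusted p = 0.00292), Foxo1 (2.07, adjusted p = 0.00567), Cebpb (1.22, adjusted p = 0.0129) and Cebpd (2.02, adjusted p = 0.0211) were also higher in diabetes. Of 21 glucocorticoid-responsive genes 5 were higher and 0 lower. Scd1 was lower in diabetes by 2.64 and Myh1 by 0.94. Pdk4 lost its call without any one of diabetic replicates 2 and 4 and unloaded replicates 2, 3 and 4 (adjusted p = 0.0512 to 0.0858). Cebpd lost its call without any one of diabetic replicate 3 and unloaded replicates 1 and 4 (adjusted p = 0.0714 to 0.103). Over all genes, the 464 calls became 278 without diabetic replicate 2, 348 without diabetic replicate 3 and 309 without unloaded replicate 1. For fatty acid use, 20 higher became 13 without diabetic replicate 2. For the glucocorticoid response, 5 higher became 3 without diabetic replicate 3.

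Several genes that changed in diabetes did not pass the direct test. Of 19 collagens 0 were higher and 0 lower (3 had an unadjusted p below 0.05 in edgeR and 1 passed in DESeq2), and Col1a1 was at 35.4 ± 16.7 CPM (SD, n = 4) in diabetes and 42.4 ± 33.8 CPM after unloading, with a difference of -0.26 ± 0.42 (SE, log2). Fbxo32 was at 628 ± 410.3 CPM and 465 ± 397 CPM (difference 0.43 ± 0.54), and Trim63 at 596 ± 276 CPM and 352 ± 229.9 CPM (0.76 ± 0.44). Of 75 oxidative phosphorylation genes 0 were higher and 1 lower, and 0 and 3 in the GC-adjusted fit. Some proteasome genes did pass. Of 34, 0 were higher and 6 lower in diabetes than after unloading, against 2.31% and 1.24% of all genes, with a median of -0.40. In the GC-adjusted fit 0 of the 34 were higher and 3 lower. For collagens, 0 higher became 1 without diabetic replicate 3 or unloaded replicate 4. For oxidative phosphorylation, 1 lower became 2 without unloaded replicate 1 and 3 without diabetic replicate 1 and 4 without diabetic replicate 4. For the proteasome, 6 lower became 0 without unloaded replicate 1 and 2 without diabetic replicate 2 or 4 and 3 without diabetic replicate 1 or 3 or unloaded replicate 2. The unloaded libraries had an index of 0.43, 0.56, 0.40 and 0.38, within or near the range of the diabetic ones. A difference that did not pass does not show that the conditions are alike.

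**Figure D5:**
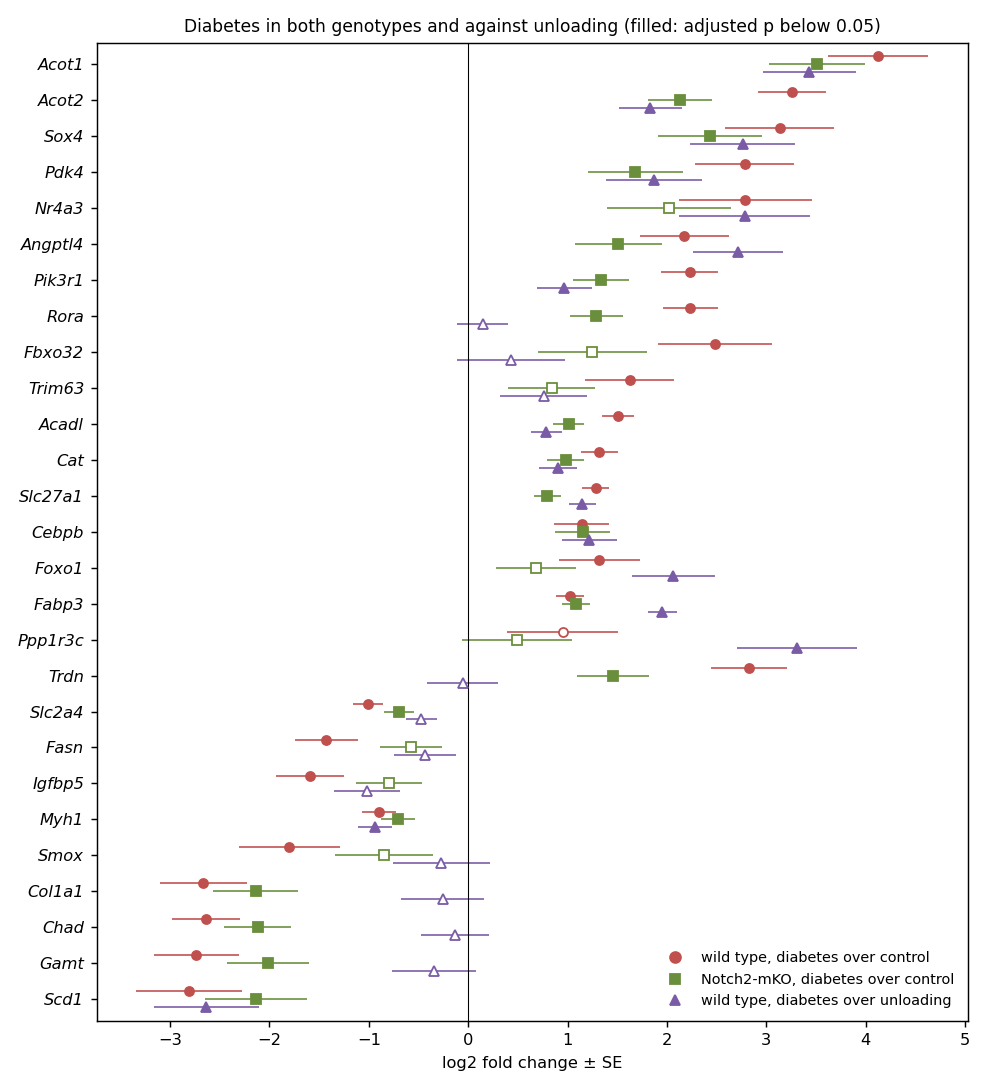
Log2 fold change ± SE of 27 genes for diabetes over control in WT muscle (circles), diabetes over control in Notch2-mKO muscle (squares) and diabetes over unloading in WT muscle (triangles); filled symbols have an adjusted p below 0.05. Acot1, Fabp3, Pdk4 and Scd1 are filled in all 3 comparisons, while Col1a1, Chad and Gamt are filled for both diabetes comparisons and open against unloading.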

How the data were processed

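The samples were 24 libraries of mouse gastrocnemius RNA, 4 in each of 6 groups, of which the 8 WT control and WT diabetic libraries are compared here. The authors deposited estimated counts for 36172 gene models, not always whole, beside their own log2 values; the build is mm10 per the submitters' processing notes, and the sources used here do not name the aligner or counter. Estimated counts were rounded and summed to 33112459 to 56369917 per library, so that 3 counts, the floor used, were at most 0.0906 CPM in the 8 libraries. All 24 libraries were fitted in edgeR 4.0.16 (R 4.3.3) with TMM scaling, filterByExpr (13048 genes kept), 1 coefficient per group and the quasi-likelihood F test. Benjamini-Hochberg adjusted p-values below 0.05 over all genes were called, and the SE is the log2 fold change over the square root of F. CPM are TMM-scaled. In the GC-adjusted fit an offset removed each library's spline trend (5 degrees of freedom) with GC content and length of GENCODE vM21 transcripts, matched for 96.8% of genes tested.

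The alternatives were DESeq2 1.42.0, upper quartile and RLE scaling, no filter on low counts, the 8 libraries alone, limma 3.58.1 on the deposited log2 values, the GC adjustment, the replicate number as a block, and each library left out. The limma test was run on the 10827 tested genes with a value other than 0 in the 8 columns and with its plain variance moderation, 2 choices made after seeing the data. Same-numbered control and diabetic WT libraries deviated from their group means with correlations of 0.01, 0.01, -0.14 and -0.04, so the numbers were not taken to pair samples. Members and gene lists were chosen with earlier results of these data known. Genes named in the text are the 15 largest rises and falls among called genes without overlap and with at least 2 CPM in the higher group (clone names passed over), members of the gene lists, and genes named whatever their p; others are said to be chosen after their values were seen. Some genes are not reported here by name. Promoters and coordinates are from RefSeq GRCm38.p6, and tables and searches used Python 3.11.15, pandas 2.3.3 and numpy 2.4.6.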

Additional observations from a re-analysis of the deposited data

Results flagged for a closer look

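In each group of 4 libraries, the levels of the 183 genes named were checked for a library that stood apart from the other 3 (gap to the nearest over the whole range above Dixon's 95% critical value), and 30 of 366 gene and group pairs had one. For normally distributed and independent values, chance alone picks out about 1 in 20. A gene at 0 in the other 3 libraries is always picked out, as Il1b, Il6, Tnf and Far2 were. Named genes also share trends between libraries, so the count cannot be judged against that share. In control replicate 1 the level in CPM was Hk1 14.3 (others 11 to 11.5), Il1b 0.0600 (others 0) and Myh3 1.29 (others 2.85 to 3.06). In control replicate 2 the level in CPM was Acot1 0.570 (others 1.05 to 1.10). In control replicate 3 the level in CPM was Ucp3 258 (others 38.99 to 74.5), Ppara 15.6 (others 11.7 to 11.9), Ckmt2 1185 (others 915 to 947), Fads2 1.89 (others 3.11 to 3.28) and Ppp1r3c 1250.0 (others 145 to 242). Also in control replicate 3 it was Rxrg 154 (others 96.2 to 105), Smox 1506 (others 543 to 656) and Thbs4 112 (others 76.5 to 82.4). In control replicate 4 the level in CPM was Trdn 159 (others 37.9 to 55.9), Ppargc1a 15.1 (others 8.51 to 9.10), Cry2 25.7 (others 39.1 to 41.4) and Hsp90aa1 13.5 (others 9.32 to 9.80). In diabetic replicate 1 the level in CPM was Klf15 26.1 (others 40.4 to 42.99), Acat1 116 (others 140.0 to 144), Idh2 236 (others 295 to 299), Pdgfra 14.5 (others 19.4 to 19.9) and Rsc1a1 16.6 (others 0.297 to 0.656). In diabetic replicate 3 the level in CPM was Npr3 14.9 (others 3.63 to 5.18), Far2 0.0280 (others 0), Cebpd 172 (others 49.6 to 68.7), Hspa8 767 (others 1095 to 1102) and Myh3 19.6 (others 5.09 to 5.57). Also in diabetic replicate 3 it was Siah1a 15.7 (others 8.44 to 9.35) and Tnf 0.0767 (others 0). In diabetic replicate 4 the level in CPM was Il1b 0.0358 (others 0) and Il6 0.0358 (others 0).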

How the results depend on the processing

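The 2327 higher and 2027 lower genes in WT became 2425 and 2167 in DESeq2, 2018 and 1663 with the 8 libraries alone, 1869 and 1295 in the GC-adjusted fit, and 2972 and 562 in limma on the authors' log2 values. Leaving out 1 library at a time gave 3340 to 4479 called genes, 1864 to 2467 of them higher and 1445 to 2081 lower. With the replicate number as a block, which the correlations do not support as a pairing, 2256 were higher and 1940 lower, and 1795 and 1237 with the block and the GC adjustment together. In Notch2-mKO muscle the 730 calls became 1142 in DESeq2, 488 with the block, 446 with block and GC adjustment, and 153 to 995 without 1 library. The difference in response had 0 calls with all libraries, 1 in DESeq2 and 0 to 62 without 1 library. Diabetes against unloading had 464 calls, 697 in DESeq2 and 278 to 468 without 1 library. The cause of these shifts was not tested.

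Of 177 genes named and tested, 166 kept their direction and side of the threshold in the GC-adjusted fit, 177 in DESeq2, 175 with the block and 155 of 175 with a value in limma. Mstn reversed, from 0.50 to -0.57 in the GC-adjusted fit and -0.53 with block and GC adjustment. Of 90 list counts, 32 moved by more than 1.5 times in the GC-adjusted fit, 43 in limma and 2 in DESeq2. The floor of 3 counts covers counting error only, and genes below about 1 CPM rest on few counts.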

Other observations

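Rsc1a1, a regulator of solute carriers chosen after its values were seen, was present or nearly absent from one library to the next. Its level was 10.4, 12.9, 7.80 and 11.98 CPM in the controls and 16.6, 0.656, 0.648 and 0.297 CPM in diabetes. Diabetic replicate 1 lay above every control and the other 3 diabetic libraries far below. In unloaded WT muscle it was at 0.527 to 1.25 CPM, in Notch2-mKO controls at 8.77 to 13.4 CPM and in diabetic Notch2-mKO muscle at 0.339 to 0.593 CPM. In the edgeR fit the WT difference did not pass (log2 fold change -1.26, adjusted p = 0.268), whereas that in Notch2-mKO muscle did (-4.51, adjusted p = 0.0154). Without diabetic replicate 1 the WT difference passed as well (-4.32, adjusted p = 2.11e-04). Far2, described among the largest falls, was present in every WT control and at or near 0 in every diabetic WT library, and the cause was not tested for either gene.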
